A study of Mus musculus with 9 samples.

Results

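A set of 7 inhibitory checkpoint ligands and receptors that dendritic cells carry was followed by RNA level: Cd274, Pdcd1lg2, Cd200, Lgals9, Vsir, Tnfrsf14 and Btla. The genes were taken by name, from a list drawn up with earlier results of these data known, and the transcripts of each were summed to 1 value per gene. All 7 were found among the 53458 genes with summed counts, and all 7 were among the 24133 genes that passed the filter on low counts. The RNA came from type 1 conventional dendritic cells (cDC1), which present captured antigen to CD8 T cells, taken from mouse peri-pancreatic lymph nodes. The 9 libraries comprised 3 labelled Healthy, 3 labelled PanIN, from nodes draining precursor lesions (pancreatic intraepithelial neoplasia), and 3 labelled Tumor, from nodes draining tumours. KPC, named in the title, is a mouse model of pancreatic cancer driven by a Cre recombinase in pancreatic cells. The labels give neither the genotype of the Healthy animals, nor age, treatment, sorting gates or pooling, so the p-values measure the spread between these libraries only, which may be technical.

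Inhibitory checkpoints restrain lymphocytes through pairs of cell-surface proteins. PD-L1 (Cd274) and PD-L2 (Pdcd1lg2) on the dendritic cell bind PD-1 on the T cell, and PD-L1 also binds CD80 on the same cell. CD200 binds an inhibitory receptor of myeloid cells, galectin-9 (Lgals9) binds TIM-3 among others, VISTA (Vsir) acts as a ligand and a receptor, and HVEM (Tnfrsf14) is the ligand of BTLA (Btla), which carries inhibitory motifs in its cytoplasmic tail. In dendritic cells, PD-L1 and PD-L2 are known to increase with maturation, the programme in which cells gain the chemokine receptor Ccr7 and the actin-bundling protein Fscn1.

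In these nodes the 7 genes fell into unlike patterns. Cd274, Pdcd1lg2 and Cd200 were higher in all 3 Tumor libraries than in all 3 Healthy libraries, with edgeR folds of 3.80, 3.13 and 1.93. Lgals9 and Tnfrsf14 had their highest mean in PanIN, and Vsir and Btla differed less between stages than between libraries of 1 stage. In edgeR's quasi-likelihood test over all genes, none of the 7 passed an adjusted p of 0.05 in any comparison of stages, in which 0% to 0.0249% of all genes did. At an unadjusted edgeR p under 0.05, 3 of the 7 were higher in Tumor than in Healthy and none lower, beside 6.82% and 11.0% of all genes. In PanIN against Healthy 2 were higher and none lower, beside 4.82% and 5.65%. Between Tumor and PanIN none differed, beside 2.02% higher and 2.52% lower. In Tumor against Healthy, DESeq2 called 3 of 7, beside 6.66% of all genes, and limma-voom with sample weights 1, beside 8.23%. In PanIN against Healthy they called 0, beside 0.812%, and 2, beside 14.1%.

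Libraries held 32150281 to 68934430 estimated counts. The defining cDC1 genes Xcr1, Clec9a, Irf8 and Batf3 were abundant throughout, with the sum of 9 cDC1 markers at 3987 to 14580 CPM (counts scaled to library size with normalization factors) in Healthy, 4939 to 10492 in PanIN and 4183 to 8305 in Tumor. The Healthy libraries differed from each other. Healthy 2 had the highest cDC1 marker sum and the lowest Ccr7, at 57.2 CPM against 419 to 2602 in the other libraries, and Healthy 3 had 1.78% of its counts on the 7SL RNA gene Rn7s1, against 0.263% to 0.764% elsewhere. Healthy 1, PanIN 1 and Tumor 1 share a code in their titles, whose meaning the labels do not give. Each of the other libraries has a code of its own, so stage and code cannot be told apart among them.

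On GRCm38, Cd274 lies at chr19:29367455-29388095 and Pdcd1lg2 at chr19:29410919-29471161, both on the plus strand and 22.8 kb apart. Btla (chr16:45224315-45257670, plus strand) and Cd200 (chr16:45382135-45409053, minus strand) are 124.5 kb apart. Lgals9 is at chr11:78962974-78984946 (minus), Tnfrsf14 at chr4:154921933-154928563 (minus) and Vsir at chr10:60346851-60372684 (plus). Vsir overlaps Cdh23 on the opposite strand, and Cdh23 averaged 2.56 CPM, against 89.3 CPM for Vsir in its lowest library. Pdcd1lg2 overlaps the antisense gene A930007I19Rik, which averaged 0.773 CPM. The kit marks strand, but whether the quantification took account of it is not stated.

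RefSeq promoter windows of 300 bases (GRCm38.p6, 250 bases before to 50 after the start) were matched for all 7 genes. Each was searched on both strands for the interferon-stimulated element core GAAANNGAAA and for the kB consensus bound by NF-kB. Lgals9 and Tnfrsf14, 2 of the 3 genes with their highest mean CPM in PanIN, held the interferon-stimulated core, with 2 matches at 55 bases before and 15 after the start in Lgals9 and 1 match 64 bases before it in Tnfrsf14. Pdcd1lg2 held 1 kB match 244 bases before the start, which fits the consensus read on either strand. In all 32851 promoter windows, 3.4% held the interferon-stimulated core and 4.5% the kB consensus. The window of Cd274, shown because this gene differed most between stages, held neither of these motifs, and the windows of Cd200, Vsir and Btla held neither as well. The windows follow 5′ to 3′ on the strand of the gene, with matches in capitals, where the interferon core appears as its reverse complement.
Lgals9, chr11:78984875-78985174, minus strand: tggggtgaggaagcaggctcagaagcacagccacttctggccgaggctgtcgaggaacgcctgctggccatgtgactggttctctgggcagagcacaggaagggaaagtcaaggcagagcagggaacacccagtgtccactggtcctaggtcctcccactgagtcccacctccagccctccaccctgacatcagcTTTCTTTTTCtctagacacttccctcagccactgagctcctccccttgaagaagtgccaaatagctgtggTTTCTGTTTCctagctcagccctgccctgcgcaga
Tnfrsf14, chr4:154928028-154928327, minus strand: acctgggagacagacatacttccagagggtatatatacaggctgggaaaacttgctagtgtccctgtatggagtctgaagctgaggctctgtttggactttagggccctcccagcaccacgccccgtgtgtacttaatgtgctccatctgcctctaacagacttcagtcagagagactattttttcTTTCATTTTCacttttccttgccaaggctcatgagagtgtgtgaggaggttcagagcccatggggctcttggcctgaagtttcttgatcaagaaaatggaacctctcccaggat
Pdcd1lg2, chr19:29410669-29410968, plus strand: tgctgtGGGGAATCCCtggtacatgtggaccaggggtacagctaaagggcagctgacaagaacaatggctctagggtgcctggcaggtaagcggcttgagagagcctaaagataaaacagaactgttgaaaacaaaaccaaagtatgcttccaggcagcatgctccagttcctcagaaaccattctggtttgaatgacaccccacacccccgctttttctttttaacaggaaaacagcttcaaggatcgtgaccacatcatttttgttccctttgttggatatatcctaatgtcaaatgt
Cd274, chr19:29367188-29367487, plus strand: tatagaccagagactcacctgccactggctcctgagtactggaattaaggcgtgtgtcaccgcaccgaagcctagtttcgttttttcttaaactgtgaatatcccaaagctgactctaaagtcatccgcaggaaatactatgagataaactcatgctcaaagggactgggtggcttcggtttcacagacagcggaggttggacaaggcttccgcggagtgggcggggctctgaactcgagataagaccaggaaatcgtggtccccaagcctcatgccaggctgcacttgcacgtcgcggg
A match describes the letters of the window and is not evidence of binding.

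Levels were compared between genes per unit length, as TPM, a length-normalised abundance, summed over protein-coding transcripts. On this scale Btla was the most abundant of the 7 genes in each of the 9 libraries. With noncoding transcripts included, Cd200 was above Btla in Healthy 1 (79.9 against 53.7 TPM), Healthy 3 (45.9 against 42.5 TPM), PanIN 1 (80.4 against 72.1 TPM) and Tumor 1 (174 against 54.2 TPM). The coding TPM of Btla was 68.3 ± 41.1 over the Healthy libraries, 113 ± 42.2 over PanIN and 79.8 ± 23.6 over Tumor (SD, n = 3 each). In Healthy the order below Btla was Vsir at 26.6 ± 12.9 TPM, Tnfrsf14 at 12.2 ± 2.85, Lgals9 at 9.88 ± 4.30, Cd200 at 8.85 ± 3.20, Cd274 at 7.22 ± 4.15 and Pdcd1lg2 at 6.27 ± 5.72. In PanIN it was Vsir at 29.1 ± 8.26 TPM, Tnfrsf14 at 27.1 ± 6.13, Lgals9 at 24.2 ± 8.16, Cd274 at 18.8 ± 1.95, Cd200 at 16.1 ± 3.40 and Pdcd1lg2 at 14.0 ± 3.75.

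In Tumor, Cd274 came next after Btla, at 26.3 ± 9.11 TPM. It was followed by Vsir at 19.7 ± 3.21, Pdcd1lg2 at 18.8 ± 4.37, Cd200 at 17.8 ± 2.78, Tnfrsf14 at 17.4 ± 7.24 and Lgals9 at 13.3 ± 2.09 TPM. Below Btla, neighbours in each order had overlapping library ranges, except Vsir and Tnfrsf14 in Healthy, where the lowest Vsir library had 15.2 TPM and the highest Tnfrsf14 library 14.6 TPM. Cd274 was below Vsir in every Healthy and PanIN library. It was above Vsir in Tumor 1 (34.1 against 16.1 TPM) and Tumor 3 (28.5 against 22.4 TPM) and below it in Tumor 2 (16.3 against 20.4 TPM).

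**Figure D1:**
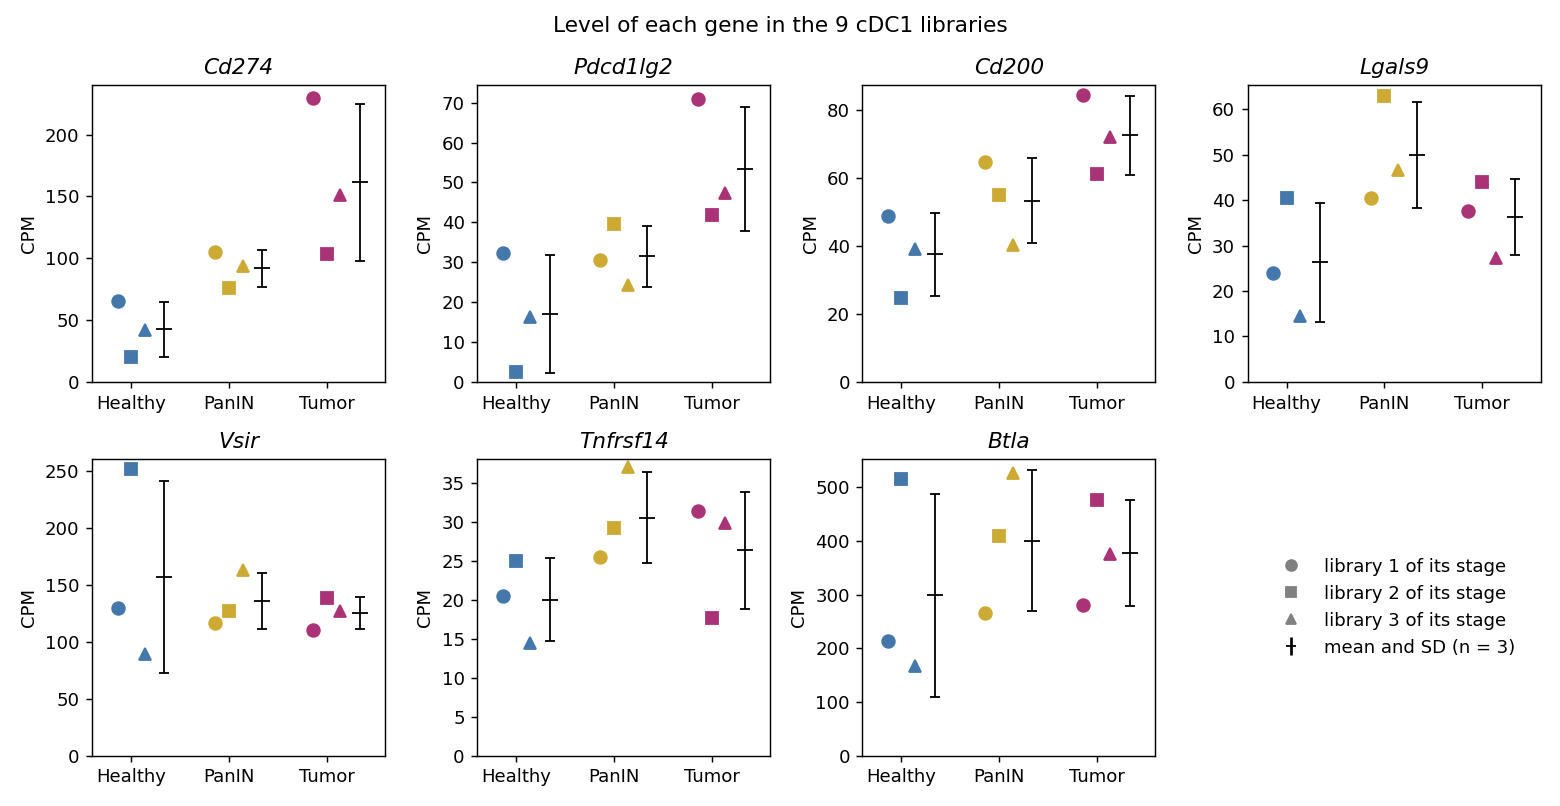
CPM of each gene (vertical axes, linear and starting at 0) in the 9 libraries by stage, with the stage mean and SD (n = 3). Cd274, Pdcd1lg2 and Cd200 sit higher in every Tumor library than in any Healthy library, while Vsir and Btla have a Healthy library near or above the highest of the other stages.

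The PD-1 ligands were considered first. Cd274 had 65.0, 20.3 and 42.2 CPM in Healthy 1, 2 and 3, then 105, 76.2 and 93.5 CPM in PanIN, and 230, 104 and 151 CPM in Tumor. Every PanIN and Tumor library was above every Healthy library, whereas Tumor 2 was just below PanIN 1. Its mean and SD were 42.5 ± 22.4 CPM for Healthy, 91.7 ± 14.7 for PanIN and 161 ± 63.7 for Tumor (n = 3 each).

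In edgeR the Cd274 log2 fold change was 1.92 (SE 0.40) in Tumor against Healthy, with an unadjusted p of 0.000377 that ranked 61 of 24133 genes and an adjusted p of 0.142. Only 6 genes, 0.0249% of those tested, were called in that comparison. In PanIN against Healthy the Cd274 log2 fold change was 1.11 (SE 0.39; edgeR adjusted p = 0.457), in a comparison with 0 called genes (0%), 2527 genes at an unadjusted p under 0.05, and 196 called by DESeq2. In Tumor against PanIN it was 0.82 (SE 0.39; edgeR adjusted p = 1), where 3 genes (0.0124%) were called. For any difference among the stages Cd274 ranked 111, with an edgeR adjusted p of 0.291, and 5 genes (0.0207%) were called.

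The Tumor against Healthy difference in Cd274 passed the threshold in 5 of the 21 alternatives that give a test. DESeq2 gave an adjusted p of 0.000561, where 6.66% of genes were called, and edgeR without a filter on low counts gave 0.00217, where 2.82% were called. limma-voom with sample weights gave a log2 fold change of 1.36 and an adjusted p of 0.0234 (8.23% called). Without Healthy 2 the edgeR log2 fold change was 1.59 and the adjusted p 0.0174 (8.51% called), and without Tumor 1 they were 1.58 and 0.325. Over 23 alternatives the log2 fold change ran from 1.15 to 2.37, and the adjusted p from 0.000561 to 0.361 over the 21 with a test. Within the shared title code, 1 library a stage, the difference in log2 CPM was 1.82. Among the other 6 libraries, each with its own code, it was 2.09.

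Pdcd1lg2, the PD-L2 gene next to Cd274, had 32.2, 2.52 and 16.4 CPM in Healthy, 30.6, 39.6 and 24.2 CPM in PanIN, and 71.0, 41.8 and 47.3 CPM in Tumor. All Tumor libraries were above all PanIN and all Healthy libraries, and PanIN overlapped Healthy, where Healthy 1 had more than PanIN 1 and PanIN 3. Healthy 2 stood far below the others. The log2 fold change was 1.65 (SE 0.61) in Tumor against Healthy, with an edgeR adjusted p of 0.195, and it was 1.14 without Healthy 2 and 2.49 without Healthy 1.

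DESeq2 called Pdcd1lg2 in Tumor against Healthy (adjusted p = 0.0487), as did edgeR without the filter (adjusted p = 0.0383), and the adjusted p ran up to 0.519 over the 21 alternatives with a test. In PanIN against Healthy the log2 fold change was 0.89 (SE 0.60) and 1.73 without Healthy 1, and it was -0.08 within the shared title code against 2.26 among the other 6 libraries. In Tumor against PanIN it was 0.76, with an edgeR adjusted p of 1.

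Cd200, whose product restrains myeloid cells that carry its receptor, had 48.8, 24.7 and 39.2 CPM in Healthy, 64.8, 55.1 and 40.2 CPM in PanIN, and 84.4, 61.2 and 72.2 CPM in Tumor. Tumor did not overlap Healthy, and PanIN overlapped both other stages. The log2 fold change in Tumor against Healthy was 0.95 (SE 0.28; edgeR adjusted p = 0.168), and DESeq2 called it at an adjusted p of 0.0359, while other alternatives reached 0.547. The PanIN value was 0.51 over Healthy (SE 0.28), and Tumor over PanIN was 0.44.

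Cd274, Pdcd1lg2 and Cd200 were thus the 3 of 7 genes whose Tumor libraries all lay above the Healthy libraries, a pattern that 9.02% of the genes tested showed. The same 3 had an unadjusted edgeR p under 0.05 with a higher level in Tumor, as did 6.82% of genes tested. In PanIN against Healthy 2 of 7, Cd274 and Lgals9, were higher at an unadjusted edgeR p under 0.05, as were 4.82% of genes tested, and the genes without overlap were Cd274, Lgals9 and Tnfrsf14, beside 7.40% of genes tested. In Tumor against PanIN it was Pdcd1lg2 alone, beside 8.33%, and none of the 7 had an unadjusted p under 0.05, beside 2.02% higher and 2.52% lower of genes tested. The 7 genes had a median log2 fold change of 0.47 for Tumor over Healthy, 0.61 for PanIN over Healthy and -0.09 for Tumor over PanIN, and all genes tested had -0.11, -0.10 and -0.05. Positive values numbered 6, 6 and 3 of 7, beside 43.5%, 42.5% and 45.8% of genes tested. The 3 comparisons share libraries, so the fold changes of a gene in the 3 comparisons are not independent.

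Lgals9 encodes galectin-9, a sugar-binding protein. It had 23.9, 40.4 and 14.6 CPM in Healthy, 40.5, 62.9 and 46.5 CPM in PanIN, and 37.5, 44.0 and 27.3 CPM in Tumor. PanIN lay above Healthy only by the margin of PanIN 1 over Healthy 2, and Tumor overlapped both. The log2 fold change was 0.93 (SE 0.34) in PanIN against Healthy, with an edgeR adjusted p of 0.457. limma-voom with sample weights called it, at an adjusted p of 0.0117 (14.1% of genes called), and the alternatives ran from that value to 0.948. In Tumor against Healthy it was 0.47 (SE 0.34; edgeR adjusted p = 0.528), and in Tumor against PanIN -0.46.

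Tnfrsf14, the HVEM gene, had 20.5, 25.0 and 14.4 CPM in Healthy, 25.5, 29.2 and 37.0 CPM in PanIN, and 31.4, 17.7 and 29.8 CPM in Tumor. PanIN again stood just above Healthy, while Tumor 2 was within the Healthy range. The log2 fold change was 0.61 (SE 0.29; edgeR adjusted p = 0.49) in PanIN against Healthy and 0.40 (SE 0.29; edgeR adjusted p = 0.526) in Tumor against Healthy, and no alternative called either.

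Btla, its receptor, had 214, 514 and 167 CPM in Healthy, 265, 410 and 527 CPM in PanIN, and 280, 476 and 376 CPM in Tumor. The 3 stages overlapped, with Healthy 2 above every Tumor library. The log2 fold change was 0.34 (SE 0.41; edgeR adjusted p = 0.738) in Tumor against Healthy and 0.42 (SE 0.41; edgeR adjusted p = 0.79) in PanIN against Healthy. Without Healthy 2 they were 0.99 and 1.075 (edgeR adjusted p = 0.0713 and 0.0872). limma-voom with sample weights called Btla in PanIN against Healthy, at a log2 fold change of 0.90 and an adjusted p of 0.0177, where 14.1% of genes were called. BTLA is also a B cell protein. The sum of 10 B cell markers, none at 0 in all libraries, was 29.5 to 34.5 CPM in Healthy, 27.6 to 276 in PanIN and 27.7 to 72.3 in Tumor, highest in PanIN 2. Btla itself was highest in PanIN 3 and Healthy 2, where the B cell sum was 27.6 and 29.5 CPM. The sum of 9 cDC1 markers was also highest there, at 10492 and 14580 CPM, and lowest in Healthy 3, as Btla was. The part of B cells or of the cDC1 content of a library in the Btla levels was not tested.

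Vsir, the VISTA gene, had 130, 252 and 89.3 CPM in Healthy, 117, 127 and 163 CPM in PanIN, and 110, 139 and 127 CPM in Tumor. All PanIN and Tumor values lay within the Healthy range, whose highest and lowest libraries were Healthy 2 and Healthy 3. The log2 fold change was -0.32 (SE 0.33; edgeR adjusted p = 0.675) in Tumor against Healthy and -0.21 (SE 0.33; edgeR adjusted p = 0.893) in PanIN against Healthy. Without Healthy 2 these were 0.20 and 0.31, and on log2(TPM + 1) the PanIN value was 0.04, so no direction can be given for Vsir.

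**Figure D2:**
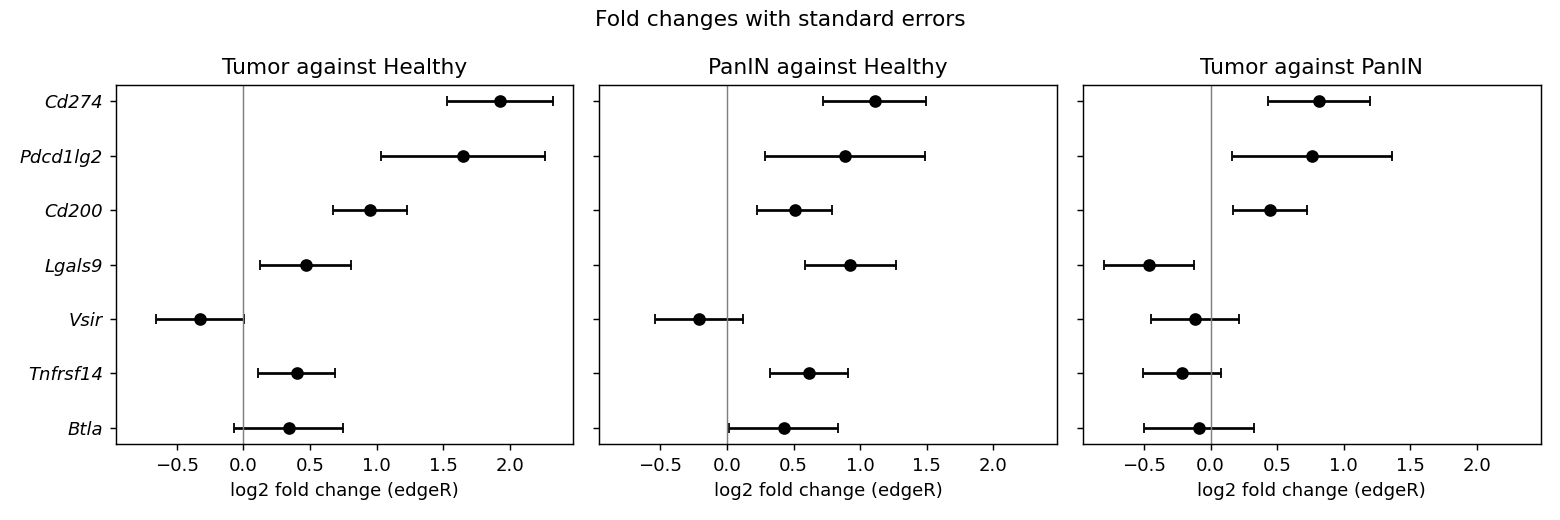
edgeR log2 fold changes (points) with standard errors (bars) for the 7 genes, with panels for Tumor over Healthy, PanIN over Healthy and Tumor over PanIN. Cd274 has the highest value in the 2 comparisons with Healthy (1.92 and 1.11), and Lgals9 and Tnfrsf14 are positive in PanIN against Healthy and negative in Tumor against PanIN.

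Ccr7 and Fscn1 varied with Cd274 from library to library. Ccr7 had 1265, 57.2 and 419 CPM in Healthy, 1518, 970 and 666 CPM in PanIN, and 2602, 1097 and 1584 CPM in Tumor. Tumor 1 was the highest library and Healthy 2 the lowest for Ccr7, as for Cd274, Pdcd1lg2 and Cd200. In bulk RNA, fewer mature cells and less RNA per cell cannot be told apart.

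Over the 9 libraries, log2 CPM of Pdcd1lg2 followed the mean log2 CPM of Ccr7 and Fscn1 with r = 0.98 and rho = 0.85 (exact permutation tests, adjusted p = 0.0013 and 0.0197). For Cd200 they were r = 0.945 and rho = 0.95 (exact permutation tests, adjusted p = 0.000752 and 0.00229), and for Cd274 r = 0.90 and rho = 0.88 (exact permutation tests, adjusted p = 0.00254 and 0.0133). The p-values were adjusted over 13 relations, and this pair of genes was chosen with the data known. The permutations ran over all 9 libraries without regard to stage. Ccr7, Fscn1, Cd274, Pdcd1lg2 and Cd200 all had higher means in Tumor than in Healthy. A stage difference that they share therefore cannot be told apart from a relation between libraries within a stage. Without Healthy 2 and Healthy 3, the libraries farthest from the median of Ccr7 and Fscn1, r was 0.84 for Pdcd1lg2, 0.93 for Cd200 and 0.675 for Cd274. In the 6 libraries that do not carry the shared code it was 0.995 for Pdcd1lg2, 0.96 for Cd200 and 0.93 for Cd274, and the 3 libraries of the code are too few for a value.

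The other 4 genes showed no such relation that passed the test. Vsir ran the other way (r = -0.74, rho = -0.47, exact permutation adjusted p = 0.122 and 0.395), with r = -0.92 without Healthy 2 and Healthy 3. For Btla r was -0.34 and rho -0.33, for Lgals9 0.00 and -0.15, and for Tnfrsf14 0.13 and 0.38, with exact permutation adjusted p from 0.451 to 0.995. With Cd274 itself, r was 0.94 for Cd200 and 0.92 for Pdcd1lg2 (exact permutation adjusted p = 0.0013 and 0.00132), and 0.78 and 0.77 without Healthy 2 and Tumor 1. The r of the other 4 genes with Cd274 ran from -0.51 for Vsir to 0.42 for Tnfrsf14, and none passed the test. Without Healthy 2 and Tumor 1 the values were 0.51 for Lgals9, 0.59 for Vsir, whose sign turned, 0.615 for Tnfrsf14 and 0.68 for Btla, close to those of Cd200 and Pdcd1lg2.

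**Figure D3:**
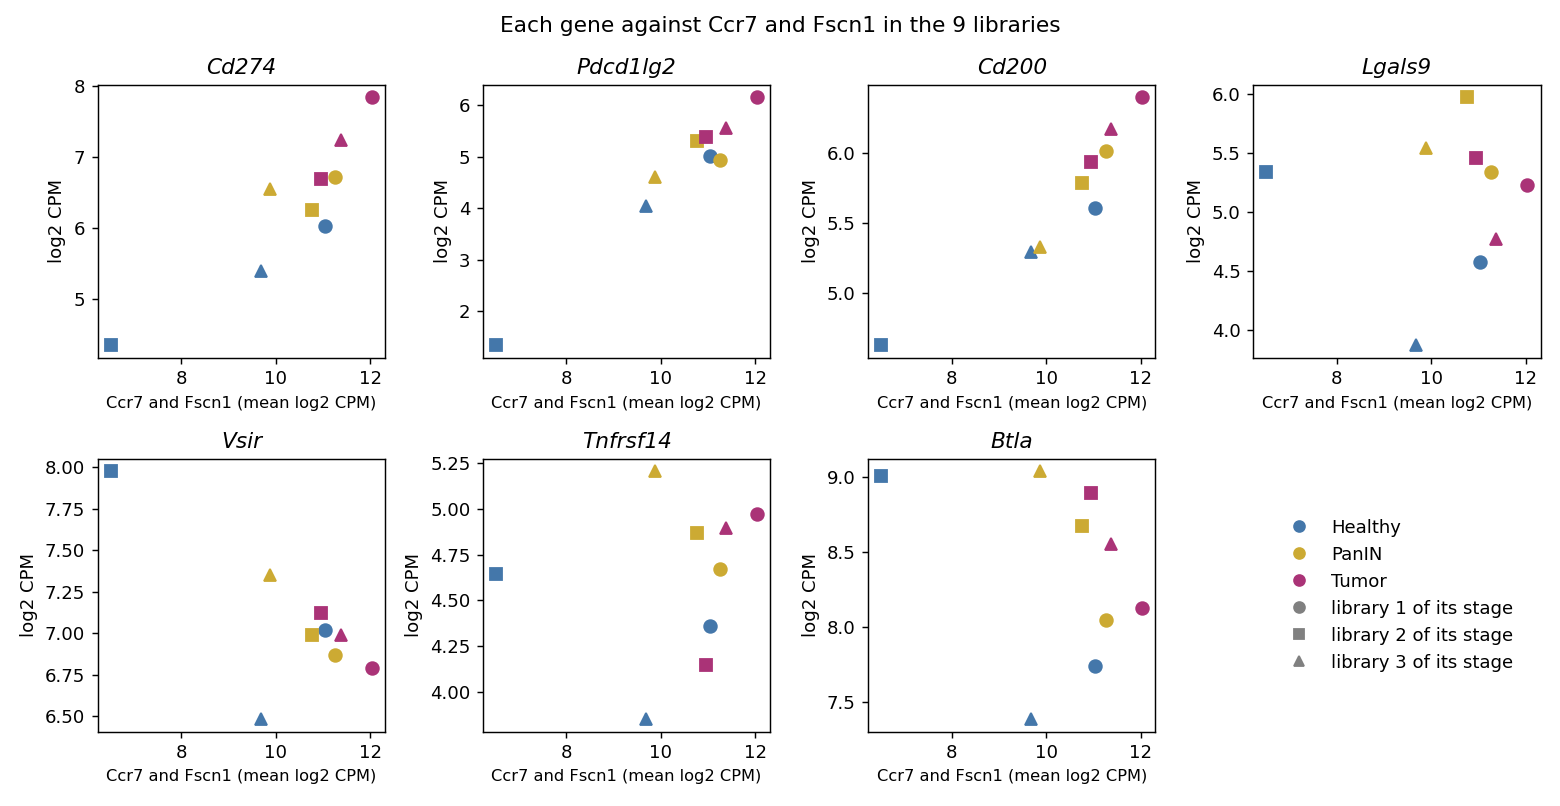
log2 CPM of each gene (vertical axes) against the mean log2 CPM of Ccr7 and Fscn1 (horizontal axes) in the 9 libraries, coloured by stage. Cd274, Pdcd1lg2 and Cd200 climb with Ccr7 and Fscn1 (r = 0.90, 0.98 and 0.945), Vsir runs the other way (r = -0.74), and Healthy 2 is at the far left of every panel.

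With the mean of Ccr7 and Fscn1 as a term in the edgeR fit, the 3 genes differed. Cd274 had a log2 fold change of 1.15 in Tumor against Healthy, against 1.92 without the term, with an edgeR adjusted p of 0.0416, where 6.43% of all genes were called. Pdcd1lg2 had 0.39 (edgeR adjusted p = 0.377), against 1.65 without the term, and Cd200 had 0.41 (edgeR adjusted p = 0.25), against 0.95. Btla, at 0.34 without the term, had 1.30 with it (edgeR adjusted p = 0.0328), and Vsir changed sign to 0.38. The term itself differs with stage, so the part of each fold change that belongs to stage and to the term cannot be told apart.

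The genes whose log2 CPM was most like that of Cd274, among 9505 genes whose mean log2 CPM was 3 or more, were Nsun4 (r = 0.99), Snx11 (r = 0.98), Traf1 (r = 0.97), Zfp945 (r = 0.97) and Lilr4b (r = 0.97), over 9 libraries that share the same stages. Nsun4 encodes a mitochondrial RNA methyltransferase, Snx11 a sorting nexin, and Traf1 an adaptor of tumour necrosis factor receptors. Traf1 was the most abundant of the 5, with 407, 142 and 215 CPM in Healthy, 543, 420 and 439 CPM in PanIN, and 757, 497 and 795 CPM in Tumor. Lilr4b has a near-identical neighbour, Lilrb4a, so its reads may be split between the 2 genes.

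Of the 7 genes, Cd274 and Pdcd1lg2 have 1 annotated transcript each, and the other 5 have several. For Btla the transcripts that carried the RNA differed in order of stage. The shorter transcript Btla-201 (1598 bases, 664 of them 3′ untranslated) and the longer Btla-202 (3251 bases, 2298 of them 3′ untranslated) start and stop translation at the same positions, with coding sequences of 918 and 915 bases. Btla-201 took 16.7%, 16.8% and 13.5% of Btla TPM in the Healthy libraries, 10.8%, 11.0% and 10.8% in the PanIN libraries, and 4.31%, 4.84% and 6.58% in the Tumor libraries.

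The 3 stages did not overlap for Btla-201, although total Btla did overlap. By share of counts in place of TPM the Btla-201 values were 8.65%, 9.33% and 7.58% in the Healthy libraries, 5.67%, 5.81% and 5.85% in the PanIN libraries, and 2.07%, 2.31% and 3.43% in the Tumor libraries, again without overlap. Btla-201 rested on 222 to 1828 estimated counts a library. It was singled out after its values were seen, as the 1 of 21 transcripts of these genes with Tumor below PanIN and PanIN below Healthy, a pattern in 0.485% of the 67029 transcripts compared. No test was made, since the shares come from a model that divides reads between overlapping transcripts.

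Btla-202 took 80.8%, 75.0% and 75.0% in the Healthy libraries, 82.3%, 81.9% and 78.9% in the PanIN libraries, and 92.9%, 93.3% and 84.3% in the Tumor libraries. Tumor was above both other stages, as for 3.33% of transcripts compared. The longer transcript of Vsir, Vsir-201 (4846 bases), took 48.9%, 52.1% and 51.6% of Vsir TPM in the Tumor libraries, against 38.7%, 40.2% and 34.5% in the Healthy libraries, and 8.16% of transcripts compared likewise had all Tumor shares above Healthy. Across 10065 genes with several coding transcripts, the mean share of the longest was 39.7% to 42.2% of coding TPM over the 9 libraries, lowest in Healthy 2. Its part in the Btla and Vsir shares was not tested.

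The transcript with the largest share of Cd200 TPM was a noncoding one of 281 bases, Cd200-210. It took 44.3%, 59.7% and 68.0% of Cd200 TPM in the Healthy libraries, 66.4%, 52.9% and 50.9% in the PanIN libraries, and 87.7%, 79.0% and 72.8% in the Tumor libraries. All 3 Tumor libraries were above the other 6. By counts Cd200-210 held 5.01%, 4.91% and 5.80% in the Healthy libraries, 5.25%, 4.84% and 5.17% in the PanIN libraries, and 14.7%, 8.20% and 6.15% in the Tumor libraries. TPM divides by length, so a short transcript weighs more in it than in counts. The 2 coding transcripts held 76.9% to 89.1% of Cd200 counts.

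**Figure D4:**
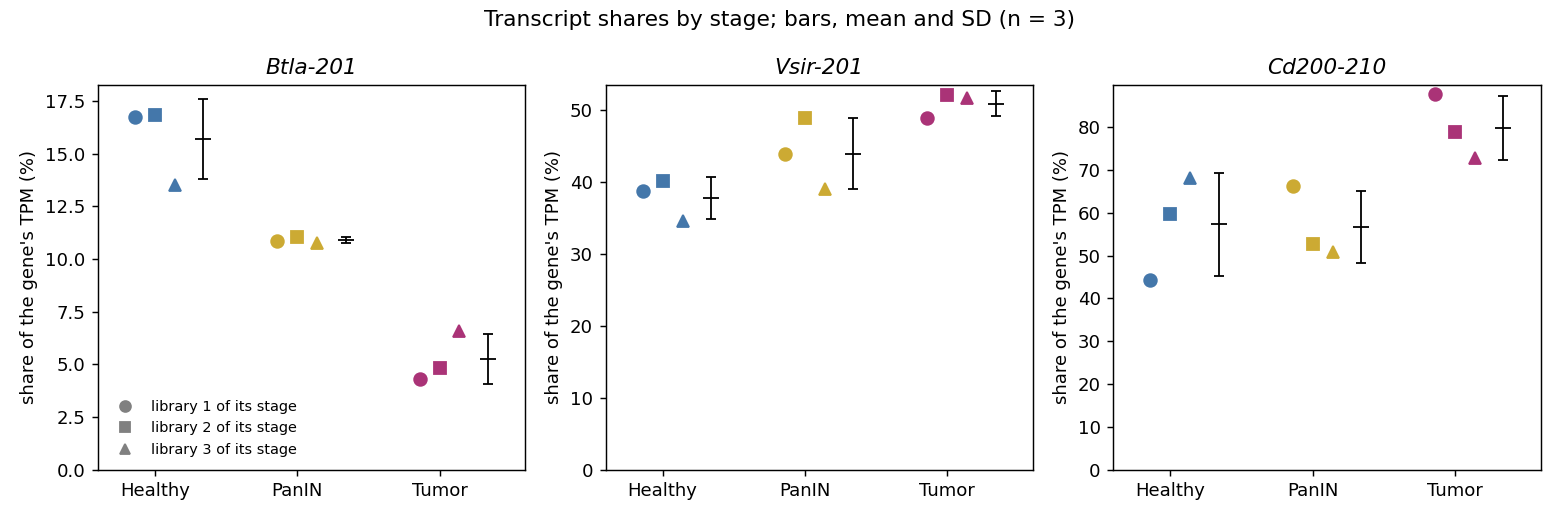
Share of the gene's TPM (percent, axes from 0) taken by Btla-201, Vsir-201 and Cd200-210 in the 9 libraries by stage, with the stage mean and SD (n = 3). Btla-201 averages 15.7% in Healthy, 10.9% in PanIN and 5.25% in Tumor without overlap, while Vsir-201 and Cd200-210 are higher in every Tumor library than in any Healthy library.

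Of 20 genes for binding partners of the 7 proteins, 19 were tested and edgeR called none in any comparison. The gene Cd80 alone had an unadjusted edgeR p under 0.05, higher in Tumor than in Healthy, beside 6.82% of all genes higher and 11.0% lower. In that comparison DESeq2 and limma-voom also called Cd80 and no other partner, beside 6.66% and 8.23% of all genes. The list's median log2 fold change was 0.19 for Tumor over Healthy, -0.13 for PanIN over Healthy and 0.11 for Tumor over PanIN. Cd80, which binds PD-L1 on the same cell, had 20.8, 29.7 and 17.1 CPM in Healthy, 27.7, 29.4 and 32.4 CPM in PanIN, and 52.2, 29.9 and 53.0 CPM in Tumor, with a mean of 45.1 ± 13.1 CPM in Tumor against 22.5 ± 6.45 CPM in Healthy (SD, n = 3 each; edgeR adjusted p = 0.168). Havcr2, the TIM-3 gene, had 562 CPM in Healthy 2 and 118 to 267 CPM in the other libraries.

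The lymphocyte partners were low. Pdcd1, which encodes PD-1, had 0.285 to 1.66 CPM in 8 libraries and 6.93 CPM in Tumor 1, the library with the most Cd274. The sum of 12 T cell markers, none at 0 in all libraries, was 142 to 345 CPM in Healthy, 79.7 to 309 in PanIN and 67.7 to 470 in Tumor, highest in Tumor 1. Tumor 1 also had the highest sum of 10 epithelial and acinar markers, at 86.5 CPM against 6.96 to 18.2 CPM in the other libraries. The sum of 7 plasma cell markers was 269 to 625 CPM in Healthy, 498 to 976 in PanIN and 388 to 1537 in Tumor, again highest in Tumor 1. That of 8 neutrophil markers, 5 of which passed the filter, was 0.341 to 0.585 CPM in Healthy, 0.378 to 35.2 in PanIN and 1.21 to 6.10 in Tumor. The part of these cells in the levels of the 7 genes was not tested. Without Tumor 1 the edgeR log2 fold change in Tumor against Healthy was 1.58 for Cd274, 1.39 for Pdcd1lg2 and 0.83 for Cd200.

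Among known regulators of Cd274, all 28 genes were tested and edgeR called none, while at an unadjusted p under 0.05 there were 8 higher in Tumor than in Healthy (6.82% of all genes), 3 higher in PanIN than in Healthy (4.82%), and 1, Stat2, lower in Tumor than in PanIN (2.52%). DESeq2 called 3 of the 28 in Tumor against Healthy (Irf1, Rela and Socs3, with 6.66% of all genes called) and 2 in PanIN against Healthy (Socs3 and Stat2, with 0.812% of all genes called), and limma-voom called 1 and 6 (8.23% and 14.1% of all genes). The list medians were 0.18, 0.32 and -0.05 in these comparisons. Irf1, the interferon-induced factor that drives Cd274 in other cells, had 356, 118 and 192 CPM in Healthy, 472, 385 and 355 CPM in PanIN, and 556, 337 and 617 CPM in Tumor, with log2 fold changes of 1.18 (SE 0.38; edgeR adjusted p = 0.168) in Tumor against Healthy and 0.86 (SE 0.38; edgeR adjusted p = 0.459) in PanIN against Healthy.

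Socs3, a feedback inhibitor of cytokine signalling, had log2 fold changes of 1.27 (SE 0.26; edgeR adjusted p = 0.142) in Tumor against Healthy and 1.21 (SE 0.26; edgeR adjusted p = 0.26) in PanIN against Healthy. Stat2, a signal carrier of type I interferon, had its highest mean CPM in PanIN, as Lgals9, Tnfrsf14 and Btla did. Its log2 fold change was 1.41 (SE 0.35, edgeR adjusted p = 0.329) in PanIN against Healthy. A link between Stat2 and the levels of Lgals9, Tnfrsf14 and Btla was not tested. Cmtm6, which keeps PD-L1 protein on the cell surface, had 279, 262 and 261 CPM in Tumor, all above its 215, 208 and 119 CPM in Healthy, with a log2 fold change of 0.57 (SE 0.25; edgeR adjusted p = 0.264).

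Of 36 other inhibitory ligands and receptors of dendritic cells, 35 were matched by symbol and 32 tested. edgeR called none. At an unadjusted p under 0.05, Tumor over Healthy had 11 higher and 1 lower, where 6.82% of all genes were higher and 11.0% lower. PanIN over Healthy had 5 higher and 1 lower, where 4.82% were higher and 5.65% lower, and Tumor over PanIN had 1 higher (2.02%). DESeq2 called 5 as higher in Tumor than in Healthy and 1 as higher in PanIN than in Healthy (6.66% and 0.812% of all genes called), limma-voom 3 and 4 (8.23% and 14.1%), and neither called any between Tumor and PanIN. The list medians were 0.57, 0.14 and 0.16. Lilrb4a, an inhibitory receptor of myeloid cells, had log2 fold changes of 1.55 (SE 0.42; edgeR adjusted p = 0.168) in Tumor against Healthy and 1.58 (SE 0.42; edgeR adjusted p = 0.378) in PanIN against Healthy, subject to its near-identical copy. Lgals1, the galectin-1 gene, had 126, 96.5 and 64.1 CPM in Tumor against 52.8, 41.8 and 33.7 CPM in Healthy. Lag3, an inhibitory receptor for MHC class II, had 16.1, 11.0 and 16.2 CPM in Tumor against 8.78, 7.43 and 6.91 CPM in Healthy.

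Of 18 genes of mature regulatory dendritic cells, which include Ccr7, Fscn1 and Cd80, edgeR called none, but all 18 had a positive log2 fold change in Tumor against Healthy, where 43.5% of all genes did. Their median was 1.34 for Tumor over Healthy, 0.61 for PanIN over Healthy and 0.74 for Tumor over PanIN, and 12, 1 and 2 members were higher at an unadjusted p under 0.05, beside 6.82%, 4.82% and 2.02% of all genes. DESeq2 called 7 of them in Tumor against Healthy, beside 6.66% of all genes, and 1, Ccl17, in Tumor against PanIN, beside 0.124%. In the same comparisons limma-voom called 4, beside 8.23% of all genes, and 0. Ccl17, a chemokine that attracts T cells carrying CCR4, had 10.1, 5.96 and 16.3 CPM in Healthy, 19.8, 17.7 and 12.4 CPM in PanIN, and 103, 25.9 and 54.4 CPM in Tumor. This list was chosen with these data known and is no independent support for the pattern of Cd274, Pdcd1lg2 and Cd200.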

How the data were processed

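Extraction used a column kit for small samples and libraries were directional, per the labels' protocols. Per the submitters' processing notes, quantification used Salmon and mm10; no version or setting is stated, and the deposited files' names mention another quantifier. The authors deposited estimated counts (not normalized, not always whole) and TPM for 136288 transcripts in each library. Of these, 136176 matched GENCODE M21 and held no less than 99.963% of any library's total.

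The deposited counts were summed to genes, rounded and filtered with filterByExpr (minimum count 10, minimum total 15). The test was edgeR 4.0.16 (R 4.3.3) with TMM factors, stage as the only term, all 9 libraries in 1 quasi-likelihood fit and Benjamini-Hochberg adjustment over all 24133 genes at 0.05. The common biological coefficient of variation was 56.5%. The test was first tried on simulated data. An exact permutation test between 2 stages has a smallest p of 0.1, so none is given for stages. Correlations used log2 CPM with a prior count of 2 and exact permutation over all orders of the 9 libraries. Libraries are numbered in accession order within a stage.

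Alternatives were DESeq2 1.42.0, RLE factors, other filters, limma 3.58.1 (voom with sample weights, and trend on log2(TPM + 1) or log2(TPM + 0.1)), terms for the shared title code or for Ccr7 and Fscn1, fewer libraries and coding transcripts alone. Leaving out Healthy 2 and Healthy 3 together and coding transcripts alone were added after seeing the data. The 7 genes, all lists and the rule for named genes were chosen with earlier results of these data known. The rule named all 7 genes, 14 fixed partners, regulators and maturation genes, the 3 genes per list with the smallest p for any difference, and the 5 genes most correlated with Cd274; one of the fixed genes and one motif searched are not reported here. Tables and figures were made with Python 3.11.15, pandas 2.3.3 and matplotlib 3.10.9.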

Additional observations from a re-analysis of the deposited data

How the results depend on the processing

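Of the 21 pairs of gene and comparison, 15 kept their sign under all 23 alternatives each, and 11 of the 441 values with a test passed the threshold. Signs changed in 6 pairs, and the cause was not tested. Pdcd1lg2 in PanIN against Healthy was -0.036 without Healthy 2 and Healthy 3 and -0.076 within the shared title code. Vsir in Tumor against Healthy was 0.38 with the Ccr7 and Fscn1 term, and -0.57 to 0.20 leaving out 1 library, positive without Healthy 2. Vsir in PanIN against Healthy was 0.027 in limma-voom, 0.043 and 0.045 on log2(TPM + 1) and log2(TPM + 0.1), 0.27 with the term, 0.066 without Healthy 2 and Healthy 3, and -0.46 to 0.31 leaving out 1 library, positive without Healthy 2. Vsir in Tumor against PanIN was 0.11 with the term, and -0.21 to 0.041 leaving out 1 library, positive without PanIN 3. Tnfrsf14 in Tumor against PanIN was 0.30 within the code, and -0.36 to 0.003 leaving out 1 library, positive without Tumor 2. Btla in Tumor against PanIN was 0.22 with the term, 0.078 within the code, and -0.31 to 0.16 leaving out 1 library, positive without PanIN 3 (0.16) and without Tumor 1 (0.089). On log2(TPM + 0.1) the median of all genes was 0.23 for PanIN over Healthy and -0.34 for Tumor over PanIN, against -0.10 and -0.05 in edgeR.

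The number of genes called depended on the method. In Tumor against Healthy it was 6, with 1041 without a filter, 3 at 50 counts or more, 1607 in DESeq2, 1986 in limma-voom, 1551 with the Ccr7 and Fscn1 term, 2 with coding transcripts alone, and 2 to 2177 leaving out 1 library, highest without Healthy 2. In PanIN against Healthy it was 0, with 123 without a filter, 196 in DESeq2, 3409 in limma-voom, 4 and 3 on log2(TPM + 1) and log2(TPM + 0.1), 2 with the term, 3 without Healthy 2 and Healthy 3, and 0 to 6 leaving out 1 library. In Tumor against PanIN it was 3, with 33 without a filter, 1 at 50 counts or more, 30 in DESeq2, 1 with the code term, 0 among the 6 libraries compared, 0 with coding transcripts alone, and 1 to 7 leaving out 1 library. For any difference it was 5, with 855 without a filter, 1043 in DESeq2, 3248 in limma-voom, 8 on log2(TPM + 1), 3 with the code term, 700 with the Ccr7 and Fscn1 term, 0 with coding transcripts alone, and 0 to 1360 leaving out 1 library.

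By counts in place of TPM, mean transcript shares over the 9 libraries moved to 48.98% for the most abundant coding transcript of Cd200, 20.22% for Vsir-202, 81.63% for Tnfrsf14-205, 93.57% for Btla-202, 5.63% for Btla-201, 79.0% for Vsir-201 and 6.67% for Cd200-210, since TPM divides by length. No paired analysis was possible because the labels carry no replicate numbers, and the title code joins only 1 library of each stage. With that code as a term, Cd274 in Tumor against Healthy had 1.95 and an adjusted p of 0.0704.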
